A study of Mus musculus with 4 samples.

Results

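The enzymes of serine synthesis, folate one-carbon metabolism and thymidylate supply were examined as a set of 9 genes, of 18193 genes with a probe set on the arrays. The genes were Phgdh, Psat1, Psph, Shmt1, Shmt2, Mthfd1, Mthfd2, Tyms and Dtymk, and every probe set annotated to exactly 1 of them was used, 27 in all. They were selected on signals of these same arrays, in which Phgdh and Dtymk were among the genes far lower in granulocytes than elsewhere. Their values are therefore a description, and no test was applied. Sorted mouse blood cells were measured on single-channel Affymetrix arrays, 1 each for bone marrow granulocytes, haematopoietic progenitor cells (HPC), and haematopoietic stem cells with short-term (ST-HSC) or long-term (LT-HSC) repopulating ability. Granulocytes, which are mature cells that no longer divide, were gated on granularity and on a strong Gr-1 signal. The others were enriched for c-Kit and stained for Sca-1, CD34 and a lineage cocktail, and the labels give HPC as LKS-, ST-HSC as CD34+LKS and LT-HSC as CD34-LKS. Thawed cells were picked by morphology and packed into empty zonae pellucidae, and RNA of 50 to 200 cells per population was amplified in 2 rounds. Strain, age and sex were not given in the labels. The series is about somatic and stem cells as donors for nuclear transfer, and the arrays were run to profile the cell types.

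Serine is made from a glycolytic intermediate by 3 enzymes acting in turn: Phgdh oxidises 3-phosphoglycerate, Psat1 transfers the amino group and Psph removes the phosphate. Serine hydroxymethyltransferases (Shmt1 in the cytosol, Shmt2 in mitochondria) then split serine into glycine and a one-carbon unit carried by folate. Mthfd2 in mitochondria and Mthfd1 in the cytosol convert that unit between its oxidation states, which supplies purine rings and the methyl group that thymidylate synthase (Tyms) adds to dUMP. Dtymk, thymidylate kinase, phosphorylates the product on its way to dTTP for DNA. In blood formation this pathway is known for its demand in dividing cells, and lack of folate causes anaemia with large red cell precursors.

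All 9 genes had a promoter in RefSeq (mouse assembly GRCm38.p6), 10 promoters in all, each of 250 bases before to 50 after a transcription start. The promoters of Phgdh and Dtymk are shown because these genes had the largest differences between granulocytes and the other arrays, and that of Mthfd2 because it was the only member at least 2-fold higher in HPC than on both stem cell arrays. Each is printed 5′ to 3′ on the minus strand, with CCAAT or its reverse ATTGG and the E-box CACGTG in capitals. Phgdh lies at chr3:98339920-98340219, Dtymk at chr1:93801885-93802184 and Mthfd2 at chr6:83317555-83317854.
Phgdh: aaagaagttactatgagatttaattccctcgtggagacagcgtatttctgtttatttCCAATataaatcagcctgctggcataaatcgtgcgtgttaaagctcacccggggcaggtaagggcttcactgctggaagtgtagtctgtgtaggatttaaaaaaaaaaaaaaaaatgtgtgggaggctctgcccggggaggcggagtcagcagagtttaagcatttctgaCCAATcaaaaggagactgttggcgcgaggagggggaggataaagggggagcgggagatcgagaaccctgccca
Dtymk: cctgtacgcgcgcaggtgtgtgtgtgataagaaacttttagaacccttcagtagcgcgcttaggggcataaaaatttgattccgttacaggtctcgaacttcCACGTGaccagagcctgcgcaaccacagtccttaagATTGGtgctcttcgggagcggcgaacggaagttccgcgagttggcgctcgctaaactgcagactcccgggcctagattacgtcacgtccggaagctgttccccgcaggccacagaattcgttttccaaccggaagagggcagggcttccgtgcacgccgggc
Mthfd2: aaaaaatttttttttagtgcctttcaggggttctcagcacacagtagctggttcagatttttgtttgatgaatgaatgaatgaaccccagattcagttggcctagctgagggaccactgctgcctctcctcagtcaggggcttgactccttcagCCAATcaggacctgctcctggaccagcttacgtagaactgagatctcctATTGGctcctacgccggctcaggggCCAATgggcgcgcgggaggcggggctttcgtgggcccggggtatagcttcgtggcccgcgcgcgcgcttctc

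CCAAT, searched on both strands, was in 7 of the 10 member promoters, against 37.4% of all 32851 promoters of that length. Mthfd2 had 3 copies, with first bases at −96, −47 and −22 from the start, and Phgdh had 2, at −193 and −23. CACGTG was in the promoters of Tyms and Dtymk, against 7.15% of all. The GC box GGGCGG was in 5 of 10, against 35.7% of all. None of the 10 windows held the E2F-type letters TTTGGCGC, TTTCCCGC or TTTCGCGC, present in 0.514%, 1.07% and 0.323% of all promoters, or the Atf4-type letters TGATGNAA, present in 3.97%. Matches of different motifs did not overlap in these promoters, while GC boxes of Shmt1 at −32 and −27 shared a base. A match describes sequence, not binding.

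Every array had 45101 probe set signals in arbitrary units, with medians between 113.9 and 131.8, and the trimmed mean was 500 on each. Signals under the floor, the median of all signals (120.1), were set to it, so that a difference with only 1 side measured is a bound, written as at least N-fold. All 8 granulocyte markers lay above the floor in granulocytes. Of 8 stem and progenitor markers, 4 lay above the floor in granulocytes, 7 in HPC, 8 in ST-HSC and 8 in LT-HSC. Their sums were 6889 in granulocytes, 27261 in HPC, 40460 in ST-HSC and 44746 in LT-HSC. Of these, Myb had 5708 in granulocytes, against 7510 in HPC, 9348 in ST-HSC and 10275 in LT-HSC. Kit, which encodes c-Kit, had 583 in granulocytes, against 3011 in HPC, 3144 in ST-HSC and 5416 in LT-HSC, and Cd34 had 17.2 in granulocytes, 5190 in HPC, 9778 in ST-HSC and 2384 in LT-HSC, the last of which was sorted without CD34 protein. The LT-HSC array also held granulocyte and B-lineage transcripts. Of 8 granulocyte markers 5 lay above its floor, with a summed signal of 14598, against 289243 on the granulocyte array, 1416 in HPC and 2861 in ST-HSC. All 6 measured B-lineage markers lay above its floor, with a sum of 13741, against 1236 in granulocytes, 6901 in HPC and 567 in ST-HSC. Granulocyte-monocyte progenitor markers (5 genes) summed to 64896 in HPC, against 22189 in ST-HSC and 3963 in LT-HSC. Of 8 oocyte and zona markers, 2 to 4 lay above the floor on each array, and Zp3 was under it on all. Of 6 cumulus markers, 4 lay above the floor in granulocytes, 1 in HPC, 0 in ST-HSC and 1 in LT-HSC, with sums of 7522 in granulocytes, 433.8 in HPC, 226.9 in ST-HSC and 694.1 in LT-HSC. Most of the granulocyte sum was Inhba, an activin subunit, at 6566. The ratio of the 3′ to the 5′ control signal of Gapdh ran from 12.4 to 17.8, and that of Actb was 5.75 in granulocytes, 12.2 in HPC, 16.1 in ST-HSC and 14.6 in LT-HSC. The part of these transcripts and of amplification in the values that follow was not tested. With 1 array per population, no difference has a replicate check.

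Granulocytes were compared with HPC, ST-HSC and LT-HSC to describe how far the pathway's transcripts differ between mature and stem or progenitor donors. Of the 9 genes, 5 were at least 4-fold lower in granulocytes than on each of the other arrays (Phgdh, Psat1, Shmt2, Mthfd1 and Dtymk) and none was 4-fold higher. Psph and Mthfd2 were lower by less than that. By the probe sets that stand for them, Shmt1 lay within 2-fold of the others and Tyms was near the floor everywhere. A further Shmt1 probe set, and a probe set shared by Tyms and its pseudogene, were much lower in granulocytes, as given below. Over all 18193 genes, 5.22% were at least 4-fold lower and 2.79% at least 4-fold higher. Only a gene at 4 times the floor on the other 3 arrays can be called lower at 4-fold, which held for 7 members and for 5479 genes in all, of which 17.3% were called. At 2-fold, 7 members and 12.6% of all genes were lower than on each of the other arrays. Since this contrast chose the members, nothing is read from these shares. In sorted bulk samples, fewer cells with a transcript and less RNA per cell cannot be told apart.

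**Figure D1:**
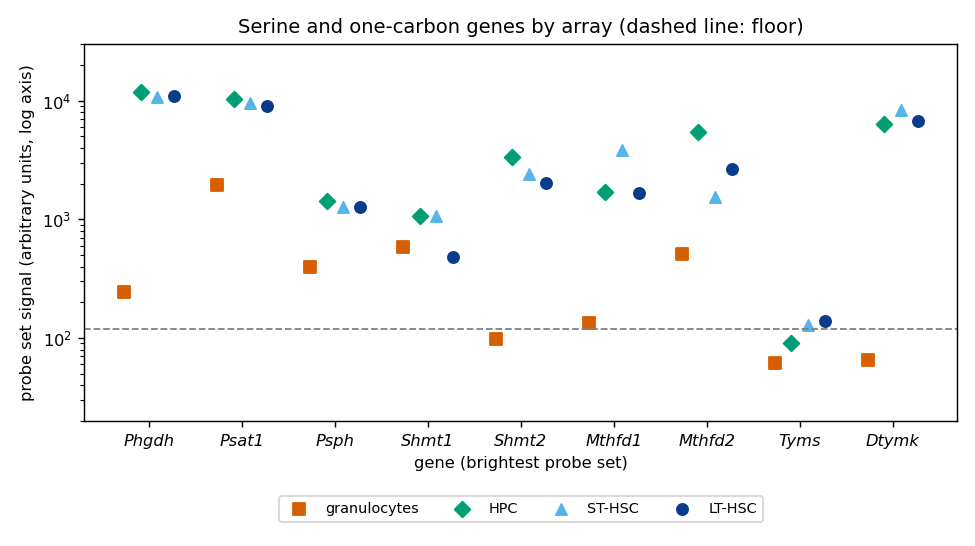
Signal of each gene (probe set with the highest mean log2 signal, log axis, arbitrary units) on the granulocyte, HPC, ST-HSC and LT-HSC arrays, 1 point per array, with the floor of 120.1 as a dashed line. Granulocytes are the lowest point for 8 genes, among them Tyms, whose points lie near or under the floor, and LT-HSC (478) lies under granulocytes (579) for Shmt1.

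The spread between probe sets of the same gene was the only available yardstick of error. Its SD was 0.85 log2 units for granulocytes against the mean of the other arrays (2874 genes), 0.57 for HPC against the mean of both stem cell arrays (3511 genes) and 0.64 for ST-HSC against LT-HSC (3875 genes). It covers neither separate sorts nor separate amplifications. It was built from probe sets above the floor on all arrays compared, whereas Shmt2 and Dtymk lay under the floor in granulocytes. By the probe sets that stand for them, 7 of the 9 genes had a granulocyte difference beyond 2 SD. For HPC 1 gene had such a difference, and for ST-HSC none. The granulocyte contrast chose the members, so nothing is read from that count, and the share of all genes was not computed.

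The serine synthesis enzymes shared 1 pattern, with a low granulocyte signal and nearly equal signals elsewhere. Phgdh had 245 in granulocytes, against 11777 in HPC, 10777 in ST-HSC and 10976 in LT-HSC. It was 44.0-fold lower than the nearest of the other arrays, which differed among themselves by no more than 1.09-fold. Psat1 had 1941 in granulocytes, against 10396 in HPC, 9584 in ST-HSC and 9088 in LT-HSC. It was 4.68-fold lower, just inside the 4-fold threshold. Psph, just outside the threshold, had 393 in granulocytes, against 1434 in HPC, 1272 in ST-HSC and 1282 in LT-HSC, a 3.23-fold difference. For these 3 genes, HPC, ST-HSC and LT-HSC did not differ beyond the spread between probe sets.

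Other probe sets of the serine enzymes had the same direction and other sizes. All 4 Phgdh probe sets were at least 4-fold lower in granulocytes, with granulocyte signals of 76 to 587 and folds against the mean of the other arrays from 6.96 to at least 89.3. The other Psat1 probe set had 1123 in granulocytes, against 3003 in HPC, 2430 in ST-HSC and 2431 in LT-HSC, a smaller difference of 2.32-fold against their mean. All Phgdh probe sets carry the suffix _x_at, which marks probes that can match other transcripts. The 2 further probe sets annotated to Phgdh and another locus (Gm8096 or Gm6756), which cannot be assigned, had 8.1 and 138.6 in granulocytes and between 1710 and 4219 elsewhere.

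The mitochondrial and cytosolic serine hydroxymethyltransferases differed in pattern. Shmt2 had 98.1, under the floor, in granulocytes, against 3372 in HPC, 2432 in ST-HSC and 2040 in LT-HSC, so that it was at least 17.0-fold lower. The granulocyte signal of all 4 Shmt2 probe sets lay under the floor. Their bounds against the mean of the other arrays ran from at least 1.86-fold to at least 21.3-fold. Only the brightest, which carries the suffix _x_at, was at least 4-fold lower than each of the other arrays. The Shmt2 probe set without that suffix had 11.8 in granulocytes, against 512 in HPC, 667 in ST-HSC and 451 in LT-HSC. It was at least 3.75-fold lower than the nearest array. The cytosolic Shmt1 had 579 in granulocytes, against 1060 in HPC, 1067 in ST-HSC and 478 in LT-HSC. Granulocytes thus lay between LT-HSC and the other 2 arrays, and another probe set gave the same order, with 438 in granulocytes, 527 in HPC, 847 in ST-HSC and 341 in LT-HSC. One further Shmt1 probe set disagreed, with 31.2 in granulocytes, against 921 in HPC, 1007 in ST-HSC and 757 in LT-HSC. The last lay under the floor on every array. The granulocyte level of Shmt1 is therefore uncertain.

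The folate dehydrogenases were lower in granulocytes and differed most among the other arrays. Mthfd1 had 133 in granulocytes, against 1685 in HPC, 3802 in ST-HSC and 1679 in LT-HSC, a 12.6-fold difference from the nearest array. The fold is uncertain, because an absent bacterial control reached 138 on the granulocyte array. The other Mthfd1 probe sets lay under the floor in granulocytes, at 27.6 and 17.3. Mthfd2 had 515 in granulocytes, against 5409 in HPC, 1535 in ST-HSC and 2631 in LT-HSC. The difference was 10.5-fold from HPC but 2.98-fold from ST-HSC. The second Mthfd2 probe set gave the same order, with 251 in granulocytes, 2312 in HPC, 593 in ST-HSC and 1535 in LT-HSC.

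Of the thymidylate enzymes, Dtymk was well above the floor outside granulocytes, and Tyms, by the probe set that stands for it, was near it. Dtymk had 65.6 in granulocytes, against 6401 in HPC, 8391 in ST-HSC and 6696 in LT-HSC. It was at least 53.3-fold lower, and the other 2 Dtymk probe sets also lay under the floor in granulocytes (37.3 and 75.5) with 337 to 5081 elsewhere. Tyms had 4 probe sets of its own, of which 2 were under the floor on every array. The brightest by mean had 61.9 in granulocytes, against 90.6 in HPC, 129.6 in ST-HSC and 139 in LT-HSC, and another had 9.3 in granulocytes, 268.6 in HPC, 80.0 in ST-HSC and 83.3 in LT-HSC. By that last probe set the HPC signal was at least 2.24-fold higher than elsewhere, where all signals lay under the floor, whereas by the brightest probe set HPC lay under the floor too. A probe set annotated to both Tyms and its pseudogene Tyms-ps had 116.2 in granulocytes, against 2541 in HPC, 2152 in ST-HSC and 1007 in LT-HSC, and cannot be assigned to either.

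**Figure D2:**
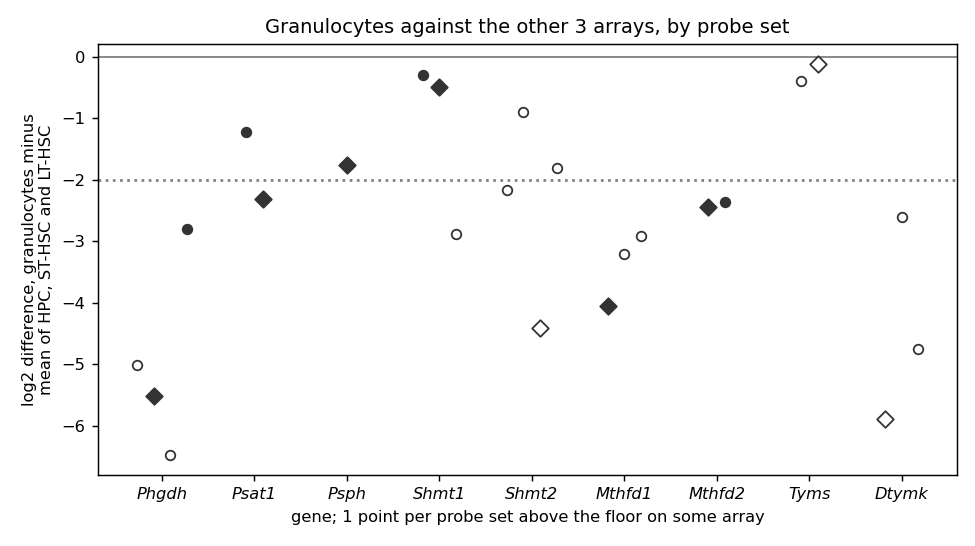
Log2 difference of granulocytes from the mean of HPC, ST-HSC and LT-HSC for each of the 24 member probe sets above the floor on some array. Diamonds are the probe sets that stand for their gene, circles the others, open symbols have a side at the floor and are bounds, and the dotted line marks a 4-fold lower signal. All 24 points lie under 0, and those of Phgdh, Shmt1, Shmt2 and Dtymk each spread over more than 2 log2 units.

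Progenitors and stem cells were set against each other to describe the pathway before maturation. Mthfd2 was the only member at least 2-fold higher in HPC than on both stem cell arrays, and none was 2-fold lower, against 2.08% higher and 2.63% lower of all genes. Its signal in HPC was 3.52-fold that in ST-HSC and 2.06-fold that in LT-HSC, a log2 difference of 1.43 from their mean. The second probe set gave 1.28 on that scale, but only 1.51-fold over LT-HSC. Mthfd1 ran the other way, with log2 differences of −0.58, −1.32 and −2.01 for its 3 probe sets, and with the first of them HPC (1685) were level with LT-HSC (1679). Without the LT-HSC array, Mthfd1 became the 1 member at least 2-fold lower in HPC, while the share of all genes called lower rose to 6.08%. Granulocyte-monocyte progenitor transcripts move with HPC. The summed B-lineage signal was also higher in HPC (6901) and LT-HSC (13741) than in ST-HSC (567). The part of either was not tested.

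Between the stem cell arrays, Mthfd1 and Shmt1 were at least 2-fold higher in ST-HSC than in LT-HSC and none was 2-fold lower, against 5.33% higher and 7.05% lower of all genes. Mthfd1 was 2.26-fold higher, with 2.57-fold and 1.52-fold for its other probe sets, and Shmt1 was 2.23-fold higher, with 2.48-fold and 1.33-fold. Dtymk was 1.25-fold higher by its brightest probe set and 2.14-fold and 3.24-fold by the others, while Mthfd2 was lower in ST-HSC by 0.78 log2 units and by 1.37 with its second probe set. Shmt2 was 1.19-fold higher by its brightest probe set and 1.48-fold, at least 2.60-fold and 2.65-fold by the others. Every one of these genes lies within 2 SD of the spread between probe sets (1.27 log2 units) by the probe set that stands for it. Each of them also had another probe set beyond 2 SD, in the same direction. That is the most extreme probe set of a gene named for its differences, so nothing is read from it. The probe sets that stand for Phgdh, Psat1 and Psph differed by at most 1.05-fold between ST-HSC and LT-HSC, while other Phgdh probe sets were up to 1.47-fold higher in ST-HSC. With the arrays scaled to the hybridization controls, Mthfd1 and Shmt1 no longer reached 2-fold. The granulocyte and B-lineage transcripts on the LT-HSC array move with this comparison, and their part was not tested.

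**Figure D3:**
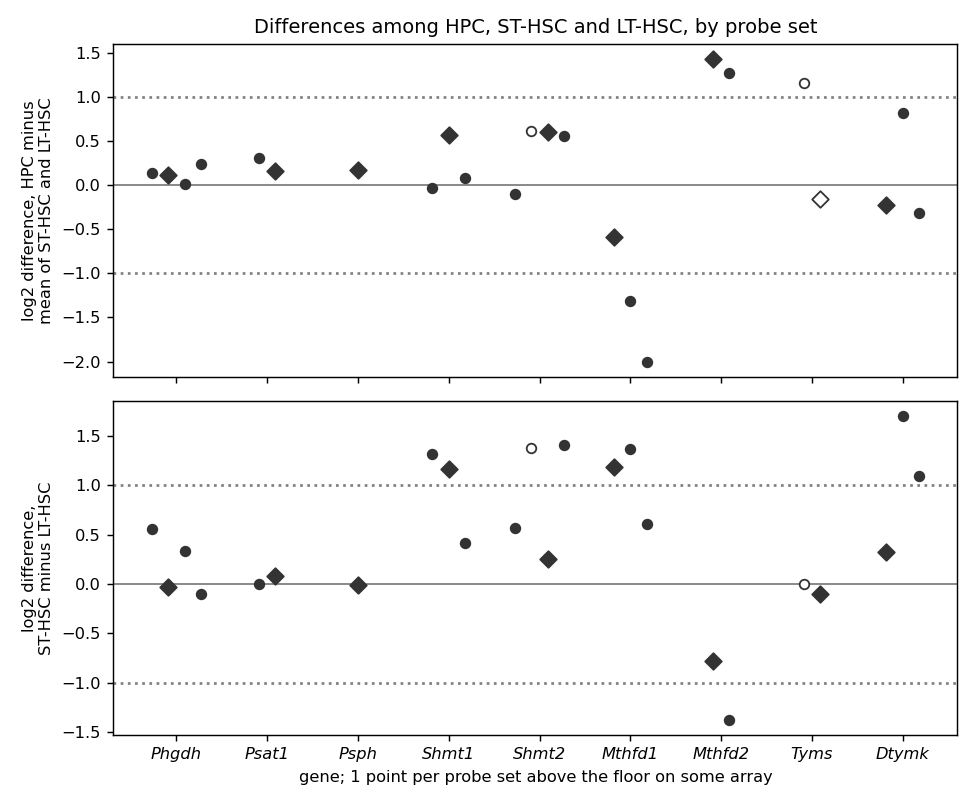
Log2 differences of HPC from the mean of ST-HSC and LT-HSC (upper panel) and of ST-HSC from LT-HSC (lower panel) for the member probe sets above the floor on some array, with symbols as diamonds for the probe set that stands for a gene and open symbols for bounds or a side at the floor. Dotted lines mark 2-fold. The Mthfd2 points lie above the upper line in HPC and below 0 for ST-HSC, and the Mthfd1 points lie below 0 in HPC and above 0 for ST-HSC.

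Neighbouring steps of folate metabolism were mixed. Over 7 measured enzymes of the list beside the members, 1 was at least 4-fold lower in granulocytes and none higher, with a median log2 difference of −0.64, against −2.44 for the 9 members and 0 for all genes. Among the 5479 genes bright on the other 3 arrays the median was −0.61. For this list and those that follow, the shares of all genes at 4-fold were 5.22% lower and 2.79% higher. Among the bright genes 17.3% were lower. Only Mthfd1l, Mthfd2l and Mtfmt of the list reached 4 times the floor on the other 3 arrays. These were the 3 lower in granulocytes at 2-fold, against 1 higher. Mthfd1l, the mitochondrial enzyme that releases formate, had 25.0 in granulocytes, against 2814 in HPC, 2901 in ST-HSC and 1729 in LT-HSC, at least 14.4-fold lower. Aldh1l2, a mitochondrial formyl-folate dehydrogenase, had the smallest difference, with 179.7 in granulocytes, 83.1 in HPC, 127.1 in ST-HSC and 89.1 in LT-HSC. Of the 3 measured glycine cleavage genes, Gcsh, its lipoate-carrying protein, had 558 in granulocytes, against 4379 in HPC, 9233 in ST-HSC and 3887 in LT-HSC. Dld, the dehydrogenase it shares with other complexes, had 297 in granulocytes, against 933 in HPC, 747 in ST-HSC and 830 in LT-HSC. Gldc, which starts the cleavage, lay under the floor on every array, at 9.6 to 29.1.

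Transport of serine and folate did not share 1 direction. Of 14 genes, 3 were at least 4-fold lower in granulocytes and none 4-fold higher, with a median of 0.02. Slc38a1, a transporter of small neutral amino acids, had 329 in granulocytes, against 3481 in HPC, 2459 in ST-HSC and 4309 in LT-HSC, 7.47-fold lower. Its relative Slc38a2 was nearly level, with 13075 in granulocytes, 15363 in HPC, 12047 in ST-HSC and 12662 in LT-HSC. Sfxn1, a mitochondrial serine transporter, was named after its values were seen: it had 1504 in granulocytes, 1486 in HPC, 1547 in ST-HSC and 1377 in LT-HSC. Its relative Sfxn3 was among the 3 lower genes, with 140.6 in granulocytes, against 783 in HPC, 712 in ST-HSC and 1046 in LT-HSC. Sfxn2 had 588 in granulocytes, 535 in HPC, 475 in ST-HSC and 346 in LT-HSC. In the methionine cycle, only Mat2b, Ahcy, Ahcyl1 and Ahcyl2 had 4 times the floor on the other 3 arrays, as a 4-fold lower call requires. At 2-fold, 3 of 11 genes were lower in granulocytes and none higher. None was 4-fold lower or higher (median −0.03). Ahcy, which hydrolyses S-adenosylhomocysteine, came closest with 660 in granulocytes, against 4254 in HPC, 4092 in ST-HSC and 2567 in LT-HSC, and Cth, a cysteine-forming enzyme, stayed near the floor on every array, at 4.0 to 128.8.

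Purine and deoxynucleotide synthesis use the one-carbon units. In de novo purine synthesis, 4-fold lower signals were found for 5 of 12 genes and higher ones for none, with a median of −2.14. Prps2, which makes the activated ribose, had 60.8 in granulocytes, against 3357 in HPC, 5192 in ST-HSC and 1429 in LT-HSC, and Impdh1, a guanine-branch enzyme, had 980 in granulocytes, 736 in HPC, 711 in ST-HSC and 1130 in LT-HSC. Deoxynucleotide supply had 4 lower and 1 higher of 14 genes at that fold (median −1.15). Dut, which makes the dUMP that Tyms uses, had 189.8 in granulocytes, against 6379 in HPC, 6199 in ST-HSC and 4116 in LT-HSC, 21.7-fold lower. Cmpk1, a kinase of UMP and CMP, had the smallest difference, with 6643 in granulocytes, 5946 in HPC, 6591 in ST-HSC and 3317 in LT-HSC. The higher gene was Samhd1, which breaks deoxynucleotides down, at 29079 in granulocytes, against 1650 in HPC, 2311 in ST-HSC and 1366 in LT-HSC.

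DNA replication genes, recorded because thymidylate serves DNA synthesis, were at least 4-fold lower in granulocytes in 13 of 20 cases and higher in none, with a median of −3.43. Mcm6, a helicase subunit, had 434 in granulocytes, against 11163 in HPC, 10124 in ST-HSC and 10689 in LT-HSC. Cdc45, a helicase partner, had 919 in granulocytes, 1636 in HPC, 639 in ST-HSC and 568 in LT-HSC. Their part in the members' values was not tested.

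**Figure D4:**
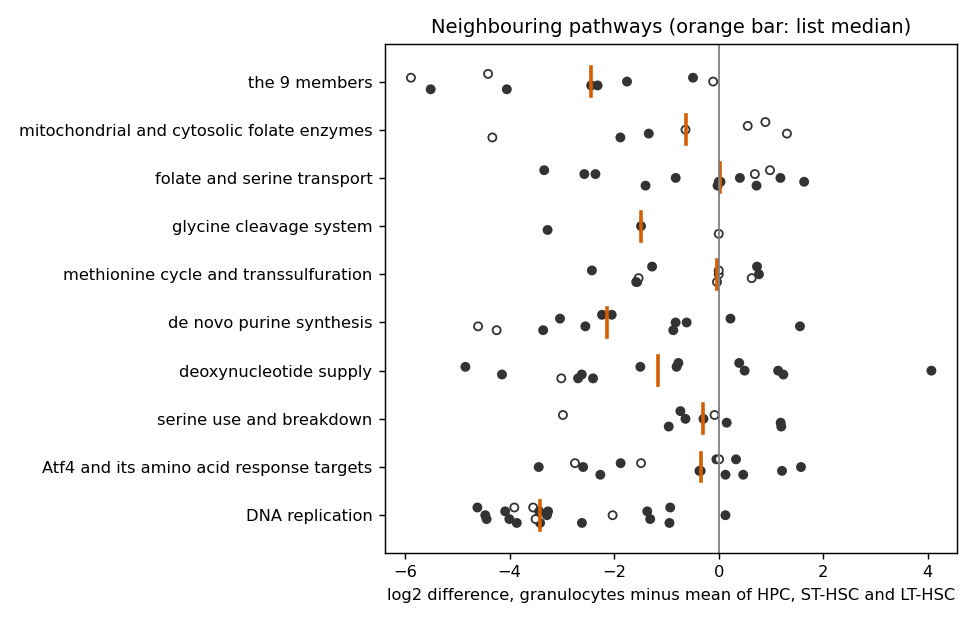
Log2 difference of granulocytes from the mean of the other 3 arrays for the 9 members and for the genes of each neighbouring list, 1 point per gene, open where a side lies at the floor, with the list median as an orange bar. The members' median of −2.44 lies between those of DNA replication (−3.43) and purine synthesis (−2.14), and transport and methionine cycle genes lie on both sides of 0.

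The genes most like the members' mean profile over the 4 arrays were found by distance between log2 signals centred on each gene's mean, among 7208 genes above the floor on all arrays and at the 75th percentile of signals on at least 1. The nearest 5 were Rpl41, Nop10, Cct5, Hint1 and Ncbp2, at distances of 0.076 to 0.11 log2 units. Rpl41 had 3637 in granulocytes, against 32518 in HPC, 31146 in ST-HSC and 24652 in LT-HSC. The members themselves lay farther from their own mean, from 0.60 for Psat1 to 2.53 for Tyms and Dtymk. Profiles of 4 points are easily matched, so the list describes the shape only.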

How the data were processed

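The authors deposited 1 linear intensity per probe set and array. Per the labels, RNA was amplified in 2 rounds as aminoallyl-aRNA and coupled to biotin. The software that summarised probes is not given in the sources used here. Of 45101 probe sets, 64 controls were left out, 34945 had 1 gene symbol in the platform annotation, 932 several and 9160 none, and only those with 1 symbol were used. Arrays were used on the deposited scale. Signals under the floor were set to it before log2, and a gene was represented by the probe set with the highest mean log2 deposited signal. Counts against several arrays require the fold against each, and list medians use the mean of the other arrays. No test was possible with 1 array per population. The members and gene lists were chosen with earlier results of these data known. Named list genes were those with the largest and smallest granulocyte difference, and all genes of lists of up to 5. Samhd1, Sfxn1, Sfxn2, Sfxn3, Atf4, Asns, Trib3, Sptlc1 and Sptlc2 were named after their values were seen. So were Mthfd2l, Mtfmt, Mat2b, Ahcyl1 and Ahcyl2, for their brightness on the other arrays. Promoters came from RefSeq (GRCm38.p6). Values were computed in Python 3.11.15 (pandas 2.3.3, numpy 2.4.6) and plotted with matplotlib 3.10.9. The calculation of the granulocyte comparison was run on simulated data with less noise than the spread between probe sets here. That checks the calculation and not how reliable the calls are. The alternatives changed the floor, the scaling, the probe set and the fold, and 3 more, which changed the probe set choice or left out the LT-HSC or HPC array, were added after the data were seen.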

Additional observations from a re-analysis of the deposited data

How the results depend on the processing

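The count of members at least 4-fold lower in granulocytes was 5 and ran from 3 to 6 over the alternatives that kept that threshold, and 7 were lower at 2-fold. It was 3 with the median over probe sets, with the first probe set by name and with probe sets other than _x_at or _s_at where a gene had one, and Phgdh, Mthfd1 and Dtymk were the 3 each time. The last of these settings could not change them, since Phgdh has only _x_at probe sets and those used for Mthfd1 and Dtymk carry neither suffix. Choosing the first by name also kept the probe sets of Mthfd1 and Dtymk. Psat1 and Shmt2, whose probe sets both settings replaced, were no longer called. Leaving out the LT-HSC or the HPC array kept the same 5 genes. The share of all genes called lower at 4-fold ran from 2.2% with the floor at the 75th percentile to 8.73% with no floor, and was 12.6% at 2-fold. The members' median log2 difference of −2.44 was −2.97 after scaling to the hybridization controls and −2.05 with a common median above the floor. The genes bright on the other 3 arrays moved with it, to −1.14 and −0.22 in place of −0.61. The 1 member higher in HPC became 0 with the median over probe sets and at 3-fold, and 2 with the probe set chosen after the floor was applied, which added Tyms. Without the LT-HSC array 1 member, Mthfd1, was lower in HPC than in ST-HSC, against 6.08% of all genes. The 2 members higher in ST-HSC than in LT-HSC became 0 after scaling to the hybridization controls and at 3-fold, and 1 with the first probe set by name. With the median over probe sets 3 members were higher, Dtymk among them, and 1 member, Mthfd2, was lower. Of 324 values of single members under the alternatives, 302 moved by less than the SD between probe sets of a gene and none of the differences of at least 2-fold changed sign. Part of these values could not move. A lower floor or none leaves a probe set above the floor on all arrays unchanged, and Psph has only 1 probe set. The count is therefore not a measure of stability. The causes were not tested. Depth has no counterpart here, and signals near or under the floor limit Tyms, Shmt2, Mthfd1 and Dtymk in granulocytes. The Dtymk log2 difference of −5.89 was −6.76 with no floor and −4.04 with the floor at the 75th percentile. No paired analysis was possible because each population had 1 array.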

Other observations

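The amino acid response and the users of serine were outside the comparisons above. Of 15 genes of the Atf4 list, the transcription factor and targets that cells induce when amino acids are short, 2 were at least 4-fold lower in granulocytes and none higher, with a median log2 difference of −0.35. Over all genes, 5.22% were 4-fold lower and 2.79% higher, and 17.3% of those bright on the other 3 arrays were lower. Atf4 itself had 14912 in granulocytes, against 10557 in HPC, 9946 in ST-HSC and 11922 in LT-HSC. Cebpg, a partner of Atf4, had 313 in granulocytes, against 4854 in HPC, 2982 in ST-HSC and 2713 in LT-HSC, 8.68-fold lower, and Nupr1, a stress response gene, had the smallest difference, with 190.3 in granulocytes, 21.9 in HPC, 128.5 in ST-HSC and 439.8 in LT-HSC. Between the stem cell arrays, 3 of the 15 were at least 2-fold lower in ST-HSC than in LT-HSC and none higher. Of all genes, 7.05% were lower and 5.33% higher. Asns, asparagine synthetase, had 1057 in ST-HSC and 4822 in LT-HSC, and Trib3 had 768 in ST-HSC and 5762 in LT-HSC. Both were named after their values were seen. Among the members, Mthfd2 also had its lower stem cell signal in ST-HSC. Phgdh, Psat1 and Psph were nearly level (log2 differences of −0.03, 0.08 and −0.01), and Tyms was near the floor. Shmt1, Shmt2, Mthfd1 and Dtymk were higher in ST-HSC. A shared cause was not tested.

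Of 9 genes that use or break down serine, 1 was at least 4-fold lower in granulocytes and none higher, with a median of −0.29. At that fold 5.22% of all genes were lower and 2.79% higher, and 17.3% of those bright on the other 3 arrays were lower. Ptdss2, which makes phosphatidylserine, had 78.1 in granulocytes, against 966 in HPC, 945 in ST-HSC and 934 in LT-HSC, at least 7.77-fold lower. Sars2, the mitochondrial seryl-tRNA synthetase, had 25.1 in granulocytes, 142 in HPC, 32.1 in ST-HSC and 106.3 in LT-HSC. Sptlc1 and Sptlc2, which join serine to a fatty acid in sphingolipid synthesis, were on the higher side in granulocytes: Sptlc1 had 2213 in granulocytes, against 928 in HPC, 775 in ST-HSC and 1252 in LT-HSC, and Sptlc2 had 2603 in granulocytes, against 1788 in HPC, 1074 in ST-HSC and 783 in LT-HSC. These 2 genes were named after their values were seen.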
